A study of Rattus norvegicus with 10 samples.

Results

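The Slc17a1 to Slc17a4 locus of the rat is a block of neighbouring genes for plasma membrane transporters of phosphate, urate and other organic anions. In rat assembly Rnor_6.0 it lies on chromosome 17 between positions 43458553 and 43584152. Its genes were selected on their position inside this interval and on their measured counts, at least 15 summed over the 10 libraries. This gave 4 of the 32623 annotated genes, and all 4 were among the 15047 genes with enough counts to be tested. The interval holds no other annotated gene. The lowest of the 4 had 5907 summed counts, far inside the limit. Just outside the interval, the nearest annotated gene before it (43423111 to 43423580) had 4 counts and the nearest one after it (43614101 to 43614844) had 52. The interval was chosen with earlier results of these libraries known, so the values below describe it and are not independent evidence that it responds.

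The study set out to find osmoregulatory genes in the whole kidney. It used male rats of the outbred Sprague-Dawley stock. The 5 control rats had water freely, and the 5 dehydrated rats had none for 72 hours (3 days). Each library was made from polyadenylated RNA of 1 rat, with no genetic change in either group, and all rats were killed in the late morning. Neither age nor food intake is stated in the labels. Whole tissue was ground, so every segment of the nephron, the vessels and the interstitium contributed RNA.

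The SLC17 family has a phosphate transporter branch and a vesicular branch, the latter holding sialin, the vesicular glutamate transporters and the vesicular nucleotide transporter. The branch encoded at this locus was first found as sodium-dependent phosphate transporters. It was later shown to move urate and other organic anions, driven by membrane voltage and sensitive to chloride. Slc17a1 (NPT1) lies in the apical membrane of the renal proximal tubule and releases urate into the urine. Slc17a3 (NPT4) is a voltage-driven apical efflux transporter of urate and of drugs such as diuretics. Slc17a4 (NPT5) is an organic anion exporter best known from the intestine, and Slc17a2 (NPT3) is the least studied of the branch. Bulk phosphate reabsorption in the proximal tubule is carried by another family, SLC34. RefSeq lists Slc17a2 as a synonym of Slc34a1, a member of that family, and the 2 genes should not be confused.

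The deposited tables name genes by Ensembl identifier only, and 0 of these identifiers could be matched in the RefSeq table of assembly GRCr8. The 4 genes are therefore called A to D in chromosomal order, with their identifiers. Gene A (ENSRNOG00000022505) spans 43458553 to 43470378 on the plus strand, with 16 annotated exon ranges and an exonic length of 3092 bp. Gene B (ENSRNOG00000042692) spans 43477600 to 43504604 on the minus strand, with 21 exon ranges and 1478 bp. Gene C (ENSRNOG00000032745) spans 43518655 to 43543185 on the minus strand, with 18 exon ranges and 2582 bp. Gene D (ENSRNOG00000017180) spans 43567528 to 43584152 on the minus strand, with 12 exon ranges and 2822 bp. Genes A and B end toward each other across 7221 bp. Genes B, C and D follow each other on the same strand, with gaps of 14050 and 24342 bp. The number of annotated genes overlapping any of them was 0.

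In the RefSeq annotation of GRCr8, 4 of the 9 SLC17 genes lie next to each other on chromosome 17, in the order Slc17a4, Slc17a1, Slc17a3 and Slc17a2 among protein-coding genes. Promoters were given for 3 of them, Slc17a4 on the plus strand and Slc17a1 and Slc17a3 on the minus strand. Genes A, B and C of the count table have the strands plus, minus and minus in Rnor_6.0. Order and strand were not taken as proof of identity, and no gene of the table was given a symbol.

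The 250 bases before the RefSeq starts are shown (GRCr8), 5′ to 3′ in the direction of the gene, as a description of these starts. Their positions are chr17:41635173-41635422 on the plus strand for Slc17a4, chr17:41681175-41681424 on the minus strand for Slc17a1 and chr17:41723110-41723359 on the minus strand for Slc17a3. Capitals mark matches to the motifs described next.
Slc17a4: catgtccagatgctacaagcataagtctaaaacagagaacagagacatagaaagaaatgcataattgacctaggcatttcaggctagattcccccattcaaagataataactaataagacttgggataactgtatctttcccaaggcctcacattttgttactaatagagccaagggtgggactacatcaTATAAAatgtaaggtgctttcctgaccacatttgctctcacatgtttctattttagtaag
Slc17a1: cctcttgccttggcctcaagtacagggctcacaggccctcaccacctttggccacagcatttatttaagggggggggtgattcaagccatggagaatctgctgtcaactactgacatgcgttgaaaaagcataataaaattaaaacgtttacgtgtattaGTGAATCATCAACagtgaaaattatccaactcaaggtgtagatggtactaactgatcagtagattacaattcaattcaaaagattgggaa
Slc17a3: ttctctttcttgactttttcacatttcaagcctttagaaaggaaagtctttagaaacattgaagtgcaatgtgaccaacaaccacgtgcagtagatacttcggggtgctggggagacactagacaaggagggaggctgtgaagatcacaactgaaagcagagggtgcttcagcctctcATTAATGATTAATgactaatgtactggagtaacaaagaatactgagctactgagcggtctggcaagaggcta

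The motifs searched, on both strands, were HNF1 (GTTAATNATTAAC, up to 2 mismatches), HNF4 (CAAAGTCCA, up to 1 mismatch), the TATA box (TATAAA, exact), the core of the tonicity factor NFAT5 (TGGAAA, exact) and the glucocorticoid receptor element (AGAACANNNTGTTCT, up to 2 mismatches). HNF1 factors are homeodomain proteins of liver and kidney epithelium. Their motif equals its own reverse complement, so a match stands on both strands. It matched 90 to 78 bases before the Slc17a1 start (GTGAATCATCAAC, 2 mismatches) and 72 to 60 bases before the Slc17a3 start (ATTAATGATTAAT, 2 mismatches). Among all 33469 RefSeq windows of this length, 365 (1.09%) held such a match. The TATA letters stood 60 to 55 bases before the Slc17a4 start, and 12.9% of all windows held them. The NFAT5 core, found in 19.7% of windows, the HNF4 motif (7.33%) and the glucocorticoid receptor element (1.58%) matched in 0 of the 3 windows. The GC content of the windows was 37.6% for Slc17a4, 41.2% for Slc17a1 and 43.6% for Slc17a3, against a median of 51.2% over all windows. All 3 starts lie inside the RefSeq span of their gene, so other starts of these genes exist and were not examined. At or below 43.6% lay 23.8% of all windows. The HNF1 motif is mostly A and T, and the shares of windows with a match were not adjusted for GC content. No motif overlapped another. None of the motifs searched matched in all 3 windows. These matches are descriptions of letters and were not tested as sites or related to the levels of genes A to D.

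All 4 genes of the locus fell after 3 days without water. The falls were of similar size, from 27.0% (gene C) to 34.0% (gene A) of the control mean, and for each gene all 5 dehydrated kidneys lay below all 5 control kidneys. By edgeR's quasi-likelihood test with Benjamini-Hochberg adjustment over all 15047 tested genes, 4 of 4 were called lower at an adjusted p below 0.05. Of all tested genes 3.77% were called lower and 4.7% higher. Groups that did not overlap, with the dehydrated kidneys lower, were found for 3.48% of tested genes. The median log2 fold change of the 4 genes was -0.53, that of all tested genes was -0.0047, and that of the 568 genes called lower was -0.45. In whole kidney, fewer cells of a type and less RNA per cell cannot be told apart. Markers of proximal tubule and other cell types could not be followed because identifiers carry no symbols, so a part of cell composition in these falls was not tested.

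Total counts per library ranged from 29454213 to 35898689, and the locus took 0.033% to 0.059% of them. The 4 genes had 390 to 10761 counts in a library. Counting error alone, the inverse square root of the count, was on average 3.76% of the level of gene A in control and 4.62% in dehydrated kidneys, and 2.78% and 3.26% for gene D. The observed coefficients of variation were 7.63% and 9.30% for gene A and 11.9% and 5.97% for gene D. Counting error was thus not negligible for gene A, or for gene D in dehydrated kidneys. For gene D in control kidneys, counting error was small beside the spread. For genes B and C it was at most 1.91%. Levels are CPM, the counts relative to the library total over tested genes, scaled between libraries by TMM. In both groups the library named for replicate 6 bears the opposite group's letter, while titles and treatment labels agree. Control replicate 6 was the highest of all 10 kidneys for every locus gene, and dehydrated replicate 6 lay below all controls for every locus gene.

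**Figure D1:**
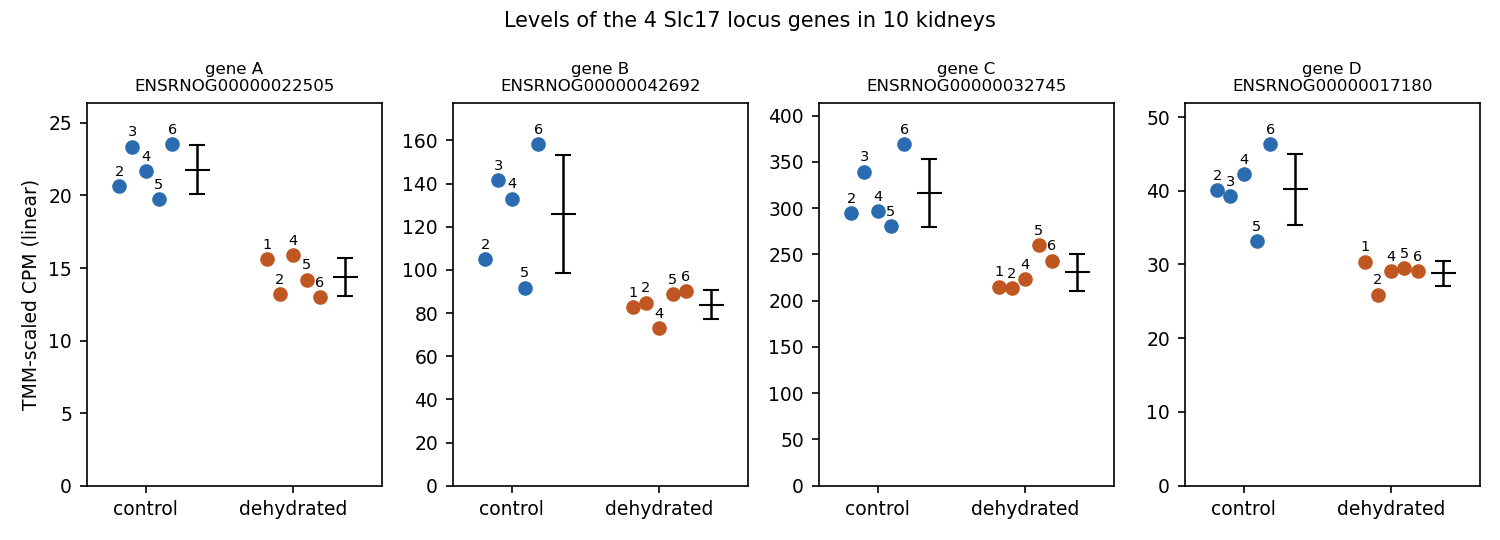
TMM-scaled CPM (linear axis from 0) of each locus gene in every kidney. Points are libraries with their replicate numbers, and bars show the mean ± SD of 5 kidneys; for each gene the dehydrated kidneys lie below the control kidneys, by the narrowest gap for gene B (90.0 against 91.8 CPM).

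Gene C was the most abundant of the locus. Its control kidneys had 294, 340, 297, 281 and 369 CPM in replicates 2, 3, 4, 5 and 6. Its dehydrated kidneys had 215, 213, 223, 259.8 and 243 CPM in replicates 1, 2, 4, 5 and 6. The highest dehydrated kidney, replicate 5, thus stayed under the lowest control kidney, also numbered 5. The group mean of gene C was 316 ± 36.9 CPM in control and 231 ± 20.0 CPM in dehydrated kidneys (SD, n = 5). The log2 fold change was -0.45 with an SE of 0.083 (adjusted p by edgeR = 0.0044).

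Gene B had 105, 142, 133, 91.8 and 158 CPM in the control kidneys numbered 2, 3, 4, 5 and 6. In the dehydrated kidneys numbered 1, 2, 4, 5 and 6 it had 82.7, 84.7, 72.8, 88.7 and 90.0 CPM. The controls were widely spread while the dehydrated kidneys lay close together: the coefficient of variation was 21.5% in control and 8.11% in dehydrated kidneys. The spreads were not compared by a test. The group mean of gene B was 126 ± 27.1 CPM in control and 83.8 ± 6.80 CPM in dehydrated kidneys (SD, n = 5). The log2 fold change was -0.59 with an SE of 0.12 (adjusted p by edgeR = 0.010). This call is the least secure of the 4: with the replicate number as a block, on the 8 libraries with shared numbers, its adjusted p was 0.056, and without the block on the same 8 libraries it was 0.054.

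Gene D had 40.1, 39.2, 42.2, 33.2 and 46.3 CPM in the control kidneys numbered 2, 3, 4, 5 and 6. Its dehydrated values were 30.4, 25.9, 29.1, 29.5 and 29.1 CPM in replicates 1, 2, 4, 5 and 6. Apart from replicate 2 the dehydrated kidneys were nearly alike, and control replicate 5 was the control nearest to them. The group mean of gene D was 40.2 ± 4.78 CPM in control and 28.8 ± 1.72 CPM in dehydrated kidneys (SD, n = 5). The log2 fold change was -0.48 with an SE of 0.080 (adjusted p by edgeR = 0.0025).

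Gene A, the only locus gene on the plus strand, had the fewest fragments. Its control kidneys had 20.6, 23.4, 21.7, 19.7 and 23.5 CPM in replicates 2, 3, 4, 5 and 6, and its dehydrated kidneys 15.6, 13.2, 15.9, 14.2 and 13.004 CPM in replicates 1, 2, 4, 5 and 6. The gap between the groups, from 15.9 to 19.7 CPM, was about as wide as the range of the control kidneys, 19.7 to 23.5 CPM. The group mean of gene A was 21.8 ± 1.66 CPM in control and 14.4 ± 1.34 CPM in dehydrated kidneys (SD, n = 5). The log2 fold change was -0.60 with an SE of 0.078 (adjusted p by edgeR = 0.00054).

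These falls were moderate among those of the kidney. Of the 568 genes called lower, 199 had a more negative log2 fold change than gene A, 205 than gene B, 263 than gene D and 279 than gene C. In the authors' deposited table the log2 fold changes were -0.60 for gene A (SE 0.085, DESeq2 adjusted p = 3.8e-10), -0.59 for gene B (SE 0.13, DESeq2 adjusted p = 0.00014), -0.45 for gene C (SE 0.087, DESeq2 adjusted p = 1.1e-05) and -0.48 for gene D (SE 0.088, DESeq2 adjusted p = 2.8e-06). The authors' deposited table calls 5.14% of its genes with an adjusted p lower at the same threshold. It was made from the same libraries and adds no independent measurement.

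**Figure D2:**
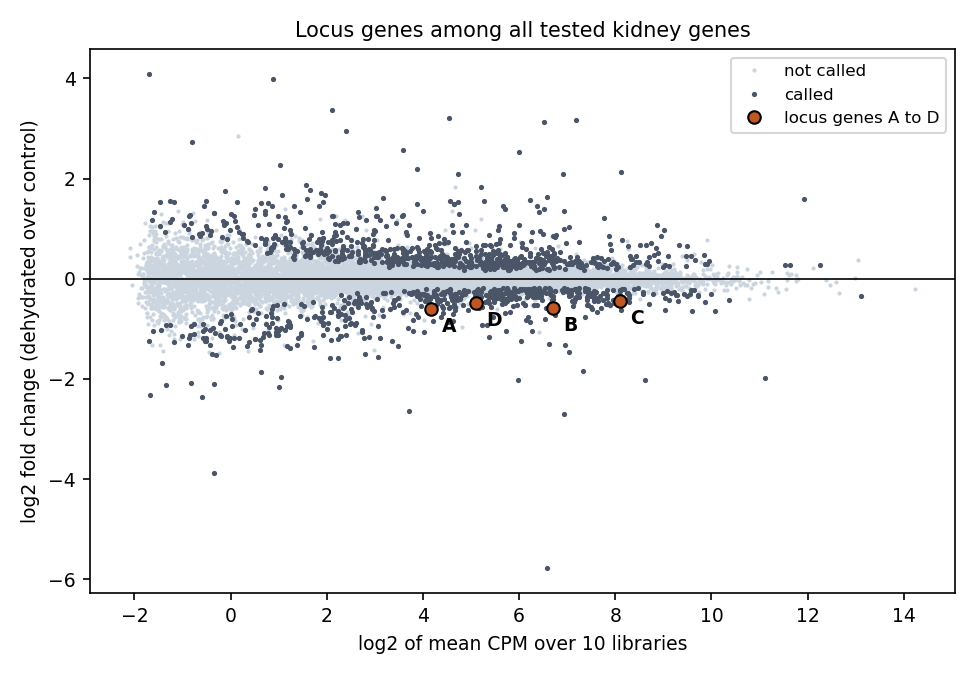
Log2 fold change (dehydrated over control) against the log2 of mean CPM for all 15047 tested genes. Called genes (edgeR adjusted p below 0.05) are dark, and the 4 locus genes, at -0.45 to -0.60, lie at moderate to high abundance and within the range of other genes called lower.

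Per kilobase of exon, the scale on which levels of different genes can be compared, the order of the 4 genes was the same in both groups. In control kidneys gene C had 122 ± 14.3 CPM per kb, gene B 85.2 ± 18.3, gene D 14.2 ± 1.69 and gene A 7.05 ± 0.54 (SD, n = 5). In dehydrated kidneys the levels were 89.4 ± 7.76 CPM per kb for gene C, 56.7 ± 4.60 for gene B, 10.2 ± 0.61 for gene D and 4.65 ± 0.43 for gene A (SD, n = 5). Neighbours in this order did not overlap in either group. The narrowest step was between gene C and gene B in control kidneys, whose lowest and highest values were 109 and 107 CPM per kb. Genes B and C, side by side on the minus strand, thus made up most of the output of the locus. The summed exonic length covers all annotated isoforms, so a gene with unused exons would read too low on this scale.

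The 4 genes summed to 504 ± 67.9 CPM in control and 358 ± 24.5 CPM in dehydrated kidneys (SD, n = 5), 71.0% of the control mean. Control sums ran from 425 to 597 CPM and dehydrated sums from 337 to 392 CPM. The share of each gene in the sum overlapped between the groups. Gene C held 62.9% ± 2.2 of the sum in control and 64.4% ± 1.5 in dehydrated kidneys, gene B 24.8% ± 2.4 and 23.4% ± 1.5, gene D 8.01% ± 0.62 and 8.07% ± 0.59, and gene A 4.35% ± 0.26 and 4.04% ± 0.54 (SD, n = 5). The lowest share of gene A was 3.94% in control and 3.47% in dehydrated kidneys. For each of the 6 pairs of genes, the log2 ratio of their CPM overlapped between the groups, and its mean differed by -0.15 (gene A over gene C) to 0.023 (gene C over gene D). These ratios were not tested, so a difference of this size between the falls of single genes is neither shown nor dismissed.

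Within the groups the genes varied partly together. Control replicate 6 lay above the control mean for all 4 genes, by 0.11 to 0.36 on the log2 scale. Control replicate 5 lay below it for all 4, with deviations of -0.43 to -0.14. None of the other 8 kidneys had all 4 genes on the same side of its group mean. Over the 10 libraries, Pearson's r of the deviations from the group means was 0.78 for genes B and C, 0.70 for B and D, 0.63 for A and D, 0.61 for C and D, 0.37 for A and B and 0.34 for A and C. These values are descriptions. The points share the libraries and their scaling. The plus-strand gene A followed the minus-strand genes B and C least.

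**Figure D3:**
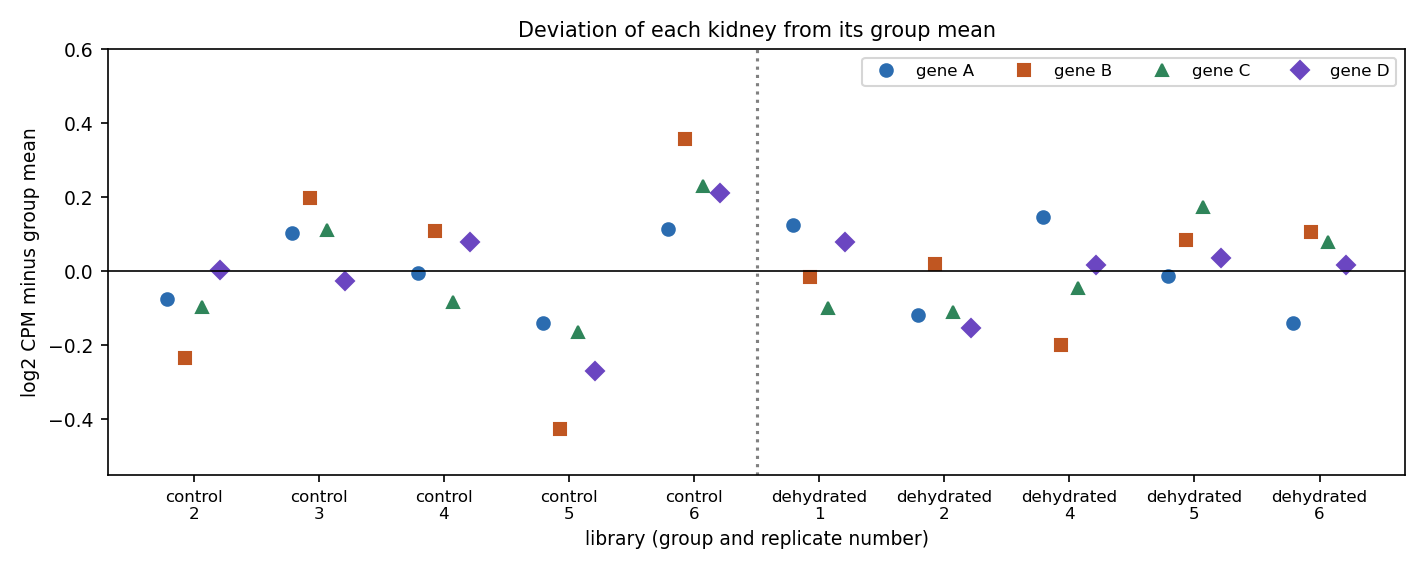
Log2 CPM of each locus gene minus the mean of its group, for the 5 control and 5 dehydrated libraries. Control replicates 5 and 6 are the only kidneys in which all 4 genes lie on the same side of 0, and gene B ranges most widely, from -0.43 to 0.36 in control kidneys.

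The change at the locus was also set beside that of its surroundings. Of the 6 tested genes nearest on the high-coordinate side, 55.6 to 95.8 kb away, 0 were called by edgeR, by DESeq2 or by limma, and 2 had an unadjusted p below 0.05 in each tool, both lower in dehydrated kidneys. Their log2 fold changes ran from -0.19 to 0.41. In order of distance these genes had means of 61.8, 3.14, 0.787, 0.638, 0.463 and 137 CPM. Where the mean was 3.14 CPM or less the SE was 0.13 to 0.26, so a fall like that of the locus could be missed. The nearest of them (43639749 to 43640387, minus strand) had 65.1 CPM in control and 58.5 CPM in dehydrated kidneys on average (log2 fold change -0.16, SE 0.066, adjusted p by edgeR = 0.186). On the low-coordinate side the 6 nearest tested genes lay 119 to 1182 kb away, with log2 fold changes from -0.64 to 0.054. Of these, 1 was called by each tool, and the number with an unadjusted p below 0.05 was 2 in edgeR and limma and 1 in DESeq2, all lower. An unadjusted p of 0.037 by edgeR went with an adjusted p of 0.199, so such unadjusted values were not rare among all tested genes. Their share over all tested genes is not given here, and the counts of neighbours below 0.05 are not read as a result. The called gene (42324594 to 42422053, minus strand), 1036 kb from the locus, fell from 120 to 90.3 CPM (log2 fold change -0.41, SE 0.097, adjusted p by edgeR = 0.019), with control and dehydrated kidneys overlapping. The gene at -0.64 (42324579 to 42324684, SE 0.28, adjusted p by edgeR = 0.199) fell short of the threshold; it overlaps the called gene on the same strand and had 0.628 CPM on average, so its counts are uncertain. Of the 12 neighbours, 1 was called by edgeR, while of all tested genes 3.77% were called lower and 4.7% higher. The number of neighbours with groups that did not overlap was 0. Among all tested genes 3.48% had such groups with the dehydrated kidneys lower. Between the locus and the nearest tested gene on that side (43050789 to 43339403, log2 fold change -0.043, SE 0.066, edgeR adjusted p = 0.789) lie only annotated genes with too few counts to test. The difference between the locus and its neighbours was not tested.

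**Figure D4:**
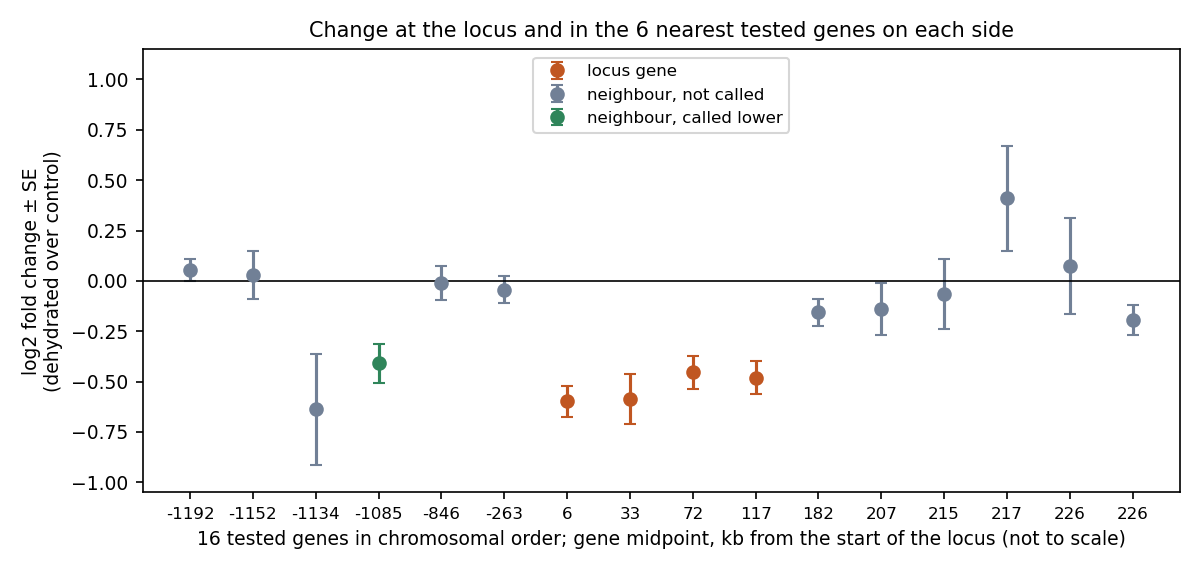
Log2 fold change (dehydrated over control, ± SE) of the 4 locus genes and the 6 nearest tested genes on each side, in chromosomal order; tick labels give the gene midpoint in kb from the start of the locus and the spacing is not to scale. The 4 locus genes lie between -0.60 and -0.45, and 1 of the 12 neighbours, at -0.41, was called lower; another, at -0.64, was further from 0 than any locus gene but was not called.

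The tested genes whose levels were most like those of the locus were sought by Pearson's r of log2 CPM over the 10 libraries, a measure that the difference between the groups dominates. For gene C, the most abundant, the best matches were genes on chromosome 1 (256226179 to 256368813, r = 0.958), chromosome 8 (99625545 to 99725217, r = 0.957) and chromosome 2 (88744597 to 88763733, r = 0.947). All 3 were called lower, with log2 fold changes of -0.27, -0.22 and -0.65. Gene B followed with r = 0.922, and 10 of the 15043 tested genes outside the locus exceeded it. For gene A, which fell most, the best matches were on chromosome 1 (145715969 to 145760623, r = 0.983), chromosome 15 (42960307 to 42976792, r = 0.972) and chromosome 17 (16333415 to 16380573, r = 0.963), also called lower, with log2 fold changes of -0.84, -0.57 and -0.38. Gene D was the locus gene most like gene A (r = 0.932), and 25 genes outside the locus exceeded it. With the group means removed, 293 genes outside the locus exceeded gene B in likeness to gene C, and 491 exceeded gene D in likeness to gene A. By that measure the 3 best matches of gene C (r = 0.957 to 0.967) and of gene A (r = 0.921 to 0.970) were other genes, on chromosomes 2, 4, 8, 10 and 16, with log2 fold changes of -0.22 to 0.0057. Removing the group means takes the difference between the groups out of this measure, so it does not bear on likeness in response to water restriction.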

How the data were processed

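The authors deposited raw counts of fragments per gene. Per the file headers, featureCounts 1.6.2 counted read pairs on the reverse strand (setting 2) against Ensembl release 103 of Rnor_6.0, after trimming and alignment with Rsubread. The aligner's version and settings are not stated. Genes on opposite strands were kept separate by the counting, but near-identical members of a family can exchange fragments. The authors' deposited table gives log2 fold changes, their standard errors and adjusted p-values from DESeq2, per the submitters' processing notes. Its 10 columns of values per library were not used.

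Counts were tested in R 4.3.3 with edgeR 4.0.16 (glmQLFit and glmQLFTest, TMM scaling, no covariate) after filterByExpr with a minimum count of 10 and a minimum total of 15. Samples were grouped by title. The SE is the absolute log2 fold change divided by the square root of F. Log2 CPM used a prior count of 2. Alternatives were DESeq2 1.42.0, limma 3.58.1 (voom), DESeq2 size factors, no filter, leaving out libraries and a replicate block. The test was checked on simulated data. Replicate libraries of a group differed by more than counting noise (chi-square per degree of freedom 13.3 to 32.0 in 20 pairs), and each counted as 1 sample.

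The members, lists and tests were chosen with earlier results of these data known. Named genes were the members, the 6 tested genes nearest on each side, and the 3 most alike by each measure for the most abundant and the most changed member. Lists of phosphate and urate handling genes and of cell type markers were not analysed here, since 0 identifiers matched a symbol. Sequences are RefSeq's (GRCr8). Titles identify separate samples, and the labels' protocols describe dissection from each animal.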

Additional observations from a re-analysis of the deposited data

Results flagged for a closer look

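Gene D (ENSRNOG00000017180) had 25.9 CPM in dehydrated replicate 2, against 29.1 to 30.4 CPM in the rest of its group. The distance to the next value was 0.714 of the group's range, just over the limit of 0.71 for 5 samples. Of 10 sets of 5 values examined (4 genes and their sum in each group), 1 passed this limit, and chance alone gives about 1 in 20. Without this library the log2 fold change of gene D was -0.44 (edgeR adjusted p = 0.0088).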

How the results depend on the processing

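All 4 genes kept their direction under each of the 17 alternatives, and genes A, C and D also kept their call. Their log2 fold changes ranged from -0.64 to -0.54 for gene A, from -0.50 to -0.39 for gene C and from -0.54 to -0.43 for gene D, with adjusted p of at most 0.0076, 0.028 and 0.016. Gene B ranged from -0.68 (without control replicate 5) to -0.49 (without control replicate 6). It stayed called in 15 alternatives. With the replicate block, on the 4 pairs with shared numbers, 3 of the 4 genes were called and gene B had a log2 fold change of -0.51 (adjusted p = 0.056). The unblocked fit of the same 8 libraries, added after the data were seen, also called 3, with gene B at -0.54 (adjusted p = 0.054). Of 15063 tested genes, the blocked fit called 341 lower and the unblocked fit 390. Both fits leave out control replicate 3 and dehydrated replicate 1. The deviations of same-numbered libraries correlated with r of -0.054 to 0.14, over 0.1 in 1 of 4 pairs. For differently numbered libraries r was -0.14 to 0.065, and 2 of 4 numbers correlated best with their own partner. These values do not settle whether the numbers are pairs. The labels do not say what a replicate number shares, so the main fit has no block. Leaving out any 1 library left 4 genes called. Of all tested genes, these fits called from 378 (without control replicate 4) to 619 (without control replicate 5) lower. Another fit of 8 libraries, leaving out both numbered 6, kept all 4 calls (gene B adjusted p = 0.033), with log2 fold changes of -0.54, -0.52, -0.41 and -0.43 for genes A to D. That fit called 435 of 15069 tested genes lower. DESeq2, limma, other scaling and no filter each gave 4. Among all tested genes, DESeq2 called 746 of 15518 lower and limma 551 of 15047. DESeq2 size factors gave 567 of 15047 and no filter 550 of 21311. Settings with fewer counts were not run, so the share of depth in these errors was not tested.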

Other observations

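Runs of neighbouring tested genes called in the same direction were counted over the genome, after the locus had been chosen. A run of 4 genes called lower was found 3 times, on chromosome 1 (263968134 to 264172729), chromosome 7 (140758615 to 140880109) and at the SLC17 locus, and 1 run of 4 genes called higher was found, on chromosome 13 (111926442 to 113571648). No longer run was found by the edgeR calls in either direction. Runs of 3 numbered 4 among genes called lower and 7 among genes called higher. At the SLC17 locus the run covered all annotated genes of the interval.

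The locus genes were set beside the 7313 other tested genes with a mean between those of genes A and C (18.1 to 273 CPM). Of these, 3.92% were called lower, close to the share among all tested genes. Their median coefficient of variation was 6.94% in control and 6.90% in dehydrated kidneys. Among the locus genes it was 7.63% (A), 21.5% (B), 11.7% (C) and 11.9% (D) in control kidneys and 9.30%, 8.11%, 8.68% and 5.97% in dehydrated kidneys. All 4 genes thus varied more than the median of their group in control kidneys, and genes A, B and C also did in dehydrated kidneys, without a test. The mean of gene A is the lower bound of this set, so the other genes had higher levels and less counting error. The excess of gene A was not adjusted for that.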
